A study of Mus musculus with 6 samples.

Results

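The genes described here encode the hydrolases, accessory proteins and membrane proteins of the lysosome and the subunits of its proton pump, the vacuolar H+-ATPase (V-ATPase), and were measured in macrophages sorted from mouse brains. The members were a list of 38 gene symbols, matched to the Ensembl identifiers of the deposited tables through the GENCODE M21 annotation. All 38 were found among the 35598 genes listed, and all 38 passed the filter on low counts, which left 10661 genes. By role there were 8 glycosidases, 5 lipid hydrolases and their activators, 5 protein-processing enzymes with progranulin, 6 membrane proteins, the transcription factor gene Tfeb and 13 V-ATPase genes. Cathepsins were left out of the list.

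The libraries came from 2 groups of male C57BL/6 mice, aged mice of 18 months and young mice of 2 months, with 3 libraries each and no other treatment or allele in the labels. Cells negative for CD3 and positive for CD11b, CD45 and CD206 were sorted as central nervous system-associated macrophages (CAMs), which live along blood vessels, in the meninges and in the choroid plexus. The labels do not say how many animals gave a library, so the p-values cover only library-to-library spread, and that spread may be technical. The libraries held between 26605077 and 33306093 counts.

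Summed levels of 12 CAM markers, among them Mrc1 (CD206), lay between 8549 and 16930 CPM (counts scaled to library size and TMM-normalized) in aged libraries and between 24491 and 27799 CPM in young ones, and 5 of the 12 were lower in every aged library than in any young one. Summed levels of 12 microglia markers were 9959, 17341 and 13652 CPM in the aged libraries and 6701, 5093 and 7749 CPM in the young ones, with 9 of the 12 higher in every aged library and none of the 12 near 0 throughout. In bulk RNA, fewer cells of a type and less RNA per cell cannot be told apart. Aged replicate 3 had almost no neutrophil or erythroid transcripts, at sums of 3.71 and 85.8 CPM, against at least 7989 and 9075 CPM in the other libraries. Choroid plexus epithelium markers summed to 8176 CPM in aged replicate 3 and 11815 CPM in young replicate 3, and to at most 1379 CPM elsewhere.

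Lysosomes break down the material that macrophages take up by phagocytosis and endocytosis. The V-ATPase pumps protons into the lumen, with a cytosolic V1 sector that hydrolyses ATP and a V0 sector in the membrane that carries the protons. The acid pH lets glycosidases, lipases and proteases work, and membrane proteins such as LAMP1 and LAMP2 line the compartment. TFEB is a transcription factor that binds the CLEAR element in the promoters of many lysosomal genes, and inherited loss of several of these enzymes causes lysosomal storage disease.

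Promoter sequences are shown because the CLEAR element is a known shared feature of this gene family and because the genes with the largest differences by age can be set beside those that carry it. RefSeq promoter windows of 300 bases on GRCm38.p6, from 250 bases before to 50 after the start of transcription, were found for 34 of the 38 members. They were searched on both strands for TCACGTGA, the core of the CLEAR element, for its part TCACGTG, and for the E-box CACGTG that both contain. TCACGTGA was present in a window of 7 of the 34 members (20.6%), against 1.12% of the 27025 genes with a window. TCACGTG was present in 11 of the 34 members (32.4%), against 4.29% of all genes, and CACGTG in the same 11 members, against 8.09% of all genes. The 11 were Lamp1, Mcoln1, Cln3, Gla, Glb1, Gaa, Ifi30, Atp6v0b, Atp6v0d1, Atp6v0e and Atp6v1a. All but 1 were glycosidases, membrane proteins or V-ATPase genes, roles that also hold 8, 6 and 13 of the 38 members. None was among the 4 lipid hydrolases and activators that had a window, and the division by role was not tested. A match is a description of letters and not a shown binding site.

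The windows of 3 members with matches and of the 2 members with the smallest p-values by age are printed with the matched letters in capitals. Lamp1 (chr8:13158911-13159210, plus strand) had 4 matches to TCACGTG, at 62, 45, 28 and 16 bases before the start. Mcoln1 (chr8:3500269-3500568, plus strand) had TCACGTG at 72 and TCACGTGA at 46 bases before the start, and Atp6v0b (chr4:117887280-117887579, minus strand) had TCACGTG at 37 and 19 bases before it. The windows of Scpep1 (chr11:88955393-88955692, minus strand) and Ppt1 (chr4:122835977-122836276, plus strand) held none of the searched letters.
Lamp1: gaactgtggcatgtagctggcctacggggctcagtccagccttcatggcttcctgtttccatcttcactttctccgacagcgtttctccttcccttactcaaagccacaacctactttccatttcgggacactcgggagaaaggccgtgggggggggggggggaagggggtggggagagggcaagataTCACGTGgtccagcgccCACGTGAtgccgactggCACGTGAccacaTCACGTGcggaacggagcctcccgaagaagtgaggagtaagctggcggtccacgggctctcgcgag
Mcoln1: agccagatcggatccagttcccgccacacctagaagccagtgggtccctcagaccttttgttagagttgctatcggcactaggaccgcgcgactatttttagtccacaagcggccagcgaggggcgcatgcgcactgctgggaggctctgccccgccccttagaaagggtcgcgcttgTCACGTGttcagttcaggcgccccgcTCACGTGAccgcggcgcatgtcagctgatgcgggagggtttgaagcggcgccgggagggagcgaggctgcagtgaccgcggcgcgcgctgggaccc
Atp6v0b: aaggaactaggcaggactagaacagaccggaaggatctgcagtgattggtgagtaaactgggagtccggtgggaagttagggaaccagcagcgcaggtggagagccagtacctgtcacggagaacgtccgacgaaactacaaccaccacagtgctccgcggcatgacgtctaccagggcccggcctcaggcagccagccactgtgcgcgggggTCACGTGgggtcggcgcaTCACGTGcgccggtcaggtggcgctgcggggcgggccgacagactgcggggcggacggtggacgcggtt
Scpep1: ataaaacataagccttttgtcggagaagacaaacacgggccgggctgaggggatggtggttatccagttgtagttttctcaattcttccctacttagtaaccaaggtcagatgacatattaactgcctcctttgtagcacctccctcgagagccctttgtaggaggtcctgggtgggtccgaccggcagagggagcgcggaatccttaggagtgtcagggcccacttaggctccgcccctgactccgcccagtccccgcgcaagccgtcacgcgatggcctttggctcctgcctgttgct
Ppt1: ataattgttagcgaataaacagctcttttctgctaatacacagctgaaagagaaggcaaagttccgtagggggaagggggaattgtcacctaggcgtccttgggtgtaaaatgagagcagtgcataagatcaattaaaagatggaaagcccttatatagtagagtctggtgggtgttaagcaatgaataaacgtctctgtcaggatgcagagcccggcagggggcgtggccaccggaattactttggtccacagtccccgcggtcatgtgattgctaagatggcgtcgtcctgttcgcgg

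Among the members, values in TPM, the transcript measure scaled for length as well as depth so that genes can be compared, were highest for the V-ATPase genes Atp6v1f and Atp6v0e. Atp6v1f averaged 670 ± 140 TPM in aged and 779 ± 46.3 TPM in young libraries, and Atp6v0e 670 ± 200 and 744 ± 59.3 TPM (SD, n = 3 each, aged libraries given before young). These neighbours in the order did not differ beyond their spread. Laptm5, Atp6v1g1, Asah1 and Grn followed, with means over the 6 libraries between 293 and 387 TPM. At the other end were Mcoln1, Gaa, Neu1, Smpd1, Gla and Tfeb, between 1.11 and 4.72 TPM over the 6 libraries.

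**Figure D1:**
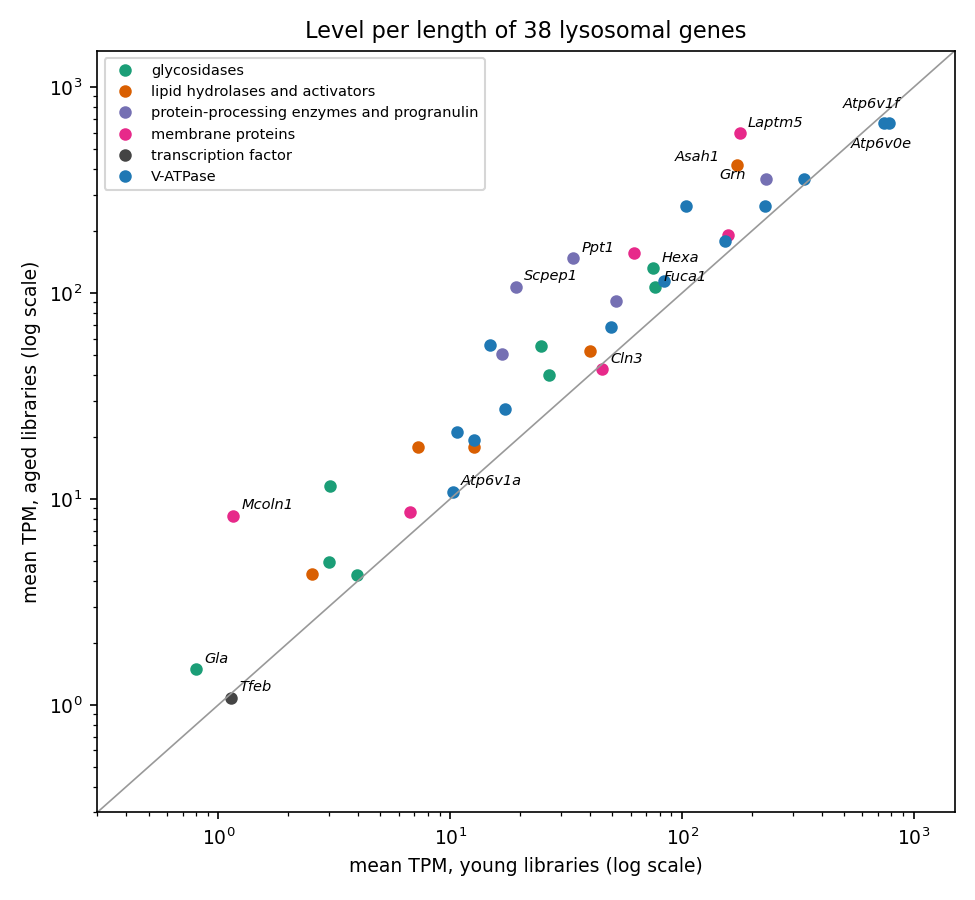
Mean TPM of each of the 38 members in 3 aged libraries (vertical axis) and 3 young libraries (horizontal axis), both on a log scale, coloured by role, with the line of equal level. Atp6v1f and Atp6v0e stand highest in both groups, and Tfeb is lowest in aged and Gla in young libraries. Most members lie above the line on this scale, where the median log2 difference of all genes was 0.22.

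The comparison by age asked which lysosomal genes differ between aged and young CAMs. Over all 38 members, 24 fitted log2 fold changes (aged minus young) were above 0 and 14 below, with a median of 0.18, against a median of -0.02 over all 10661 genes tested. In edgeR's quasi-likelihood test with Benjamini-Hochberg adjustment over all genes, 0 members were called at an adjusted p under 0.05, where 0.00938% of all genes were called (1 gene, higher in aged libraries). At an unadjusted p under 0.05, 5 members were higher (Scpep1, Ppt1, Man2b1, Atp6v1b2 and Grn) and 0 were lower, against 3.63% of all genes higher and 2.04% lower. The same 5 and Laptm5, 6 of 38, had every aged library above every young library in normalized CPM, and 0 had every aged library below. Over all genes tested, 7.54% were higher and 7.19% lower without overlap. Of the 38 members, 29 averaged 50 CPM or more, these 6 among them. Of the 2189 genes that did so, 11.2% were higher and 8.45% lower without overlap, and 8.59% were higher and 3.38% lower at an unadjusted p under 0.05.

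**Figure D2:**
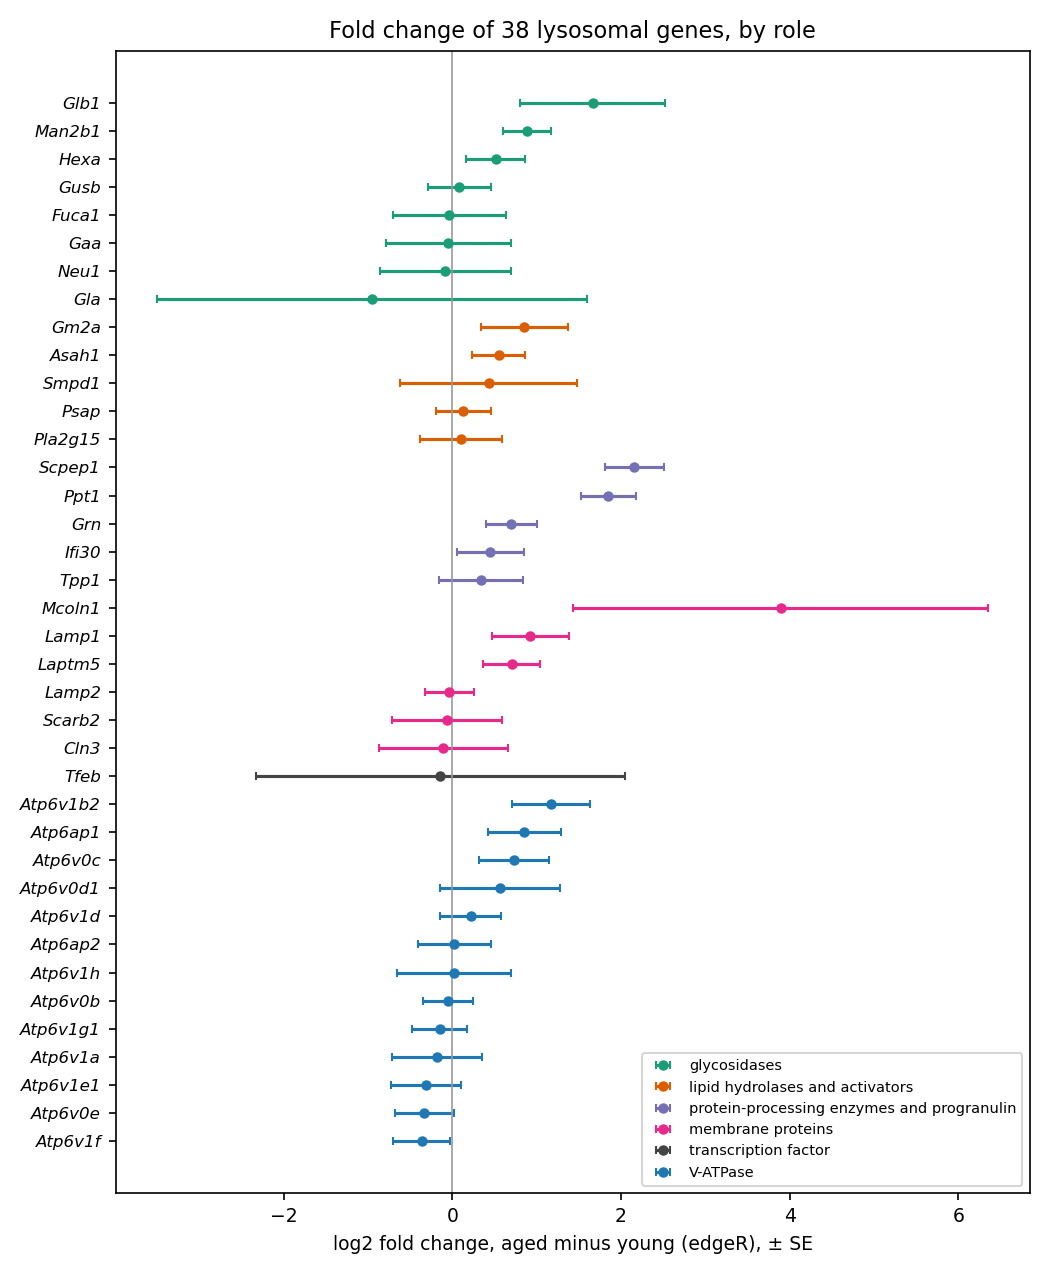
Log2 fold change of each member, aged minus young, from edgeR, with bars of 1 standard error (SE), ordered within each role. Scpep1 (2.16) and Ppt1 (1.85) have the largest changes relative to their SE, the 13 V-ATPase genes lie on both sides of 0, and Mcoln1, Gla and Tfeb have SEs above 2.

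The spread between libraries differed with the level of a gene. The biological coefficient of variation, the spread edgeR fits beyond counting error, had a median of 48.2% for genes that averaged 50 CPM or more and of 129% for the rest. For the members Gla, Tfeb and Mcoln1 some library held 3 counts or fewer. When the same test was run on the 2185 genes that averaged 50 CPM or more before scaling, 2 members were called higher, Scpep1 and Ppt1, and 0 lower, against 0.870% of those genes called higher, 0.275% called lower and 1.14% in either direction. The same 2 members were called higher, and 0 lower, with no filter on low counts, where 0.225% of genes were called higher, 0.0485% lower and 0.273% in either direction. They were also the 2 called by the DESeq2 Wald test, where 2.19% of genes were called higher, 1.52% lower and 3.71% in either direction.

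Among the protein-processing enzymes, Scpep1, which encodes retinoid-inducible serine carboxypeptidase 1, differed most. Its level was 272, 492 and 408 CPM in the aged libraries and 86.6, 99.6 and 76.1 CPM in the young ones. Every aged library was far above every young one, and the young libraries lay close together. The mean was 391 ± 111 CPM in aged and 87.4 ± 11.8 CPM in young libraries (n = 3 each), a ratio of 4.47 and a log2 fold change of 2.16 (SE 0.35). The edgeR adjusted p was 0.378 over all 10661 genes and 0.00499 among genes averaging 50 CPM or more (log2 fold change 2.23, SE 0.38). Scpep1 (ENSMUSG00000000278.10) lies on mm10 chromosome 11 from 88924020 to 88955465.

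Ppt1, which encodes palmitoyl-protein thioesterase 1, an enzyme that removes fatty acids from cysteines and is lost in a neuronal ceroid lipofuscinosis, showed a gap of the same kind. It had 543, 616 and 622 CPM in the aged libraries and 117, 166 and 210 CPM in the young ones. The aged libraries were nearly level with each other on this scale and all well above the young ones. In deposited TPM Ppt1 was less even, at 113, 199 and 130 TPM in aged and 21.4, 37.9 and 42.3 TPM in young libraries, without overlap. The log2 fold change was 1.85 (SE 0.33), the ratio of means 3.61, and the edgeR adjusted p 0.378 over all genes and 0.00499 among genes averaging 50 CPM or more. Ppt1 (ENSMUSG00000028657.14, mm10 chromosome 4 from 122836242 to 122859175) overlaps Cap1 on the opposite strand, and counting was not stated to use strand. Cap1 reads came to 4.54% of those of Ppt1 over the 6 libraries.

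Among genes averaging 50 CPM or more the 2 calls depended on single libraries. The Scpep1 call ended without aged replicate 2 (edgeR adjusted p = 0.0601), and the Ppt1 call ended without young replicate 1 (0.0514) or young replicate 2 (0.0526). The log2 fold changes stayed between 1.90 and 2.48 for Scpep1 and between 1.69 and 2.05 for Ppt1 in these fits. Without aged replicate 1, Lamp1 was called as well (log2 fold change 1.44, edgeR adjusted p = 0.0207), where 112 of 2207 genes were called higher. The summed microglia markers were higher in the same aged libraries. Within the aged group Scpep1 had the same order as that sum, lowest in replicate 1 and highest in replicate 2. Within the young group Scpep1 had the reverse order of that sum, highest in replicate 2 and lowest in replicate 3. Ppt1 was lowest in aged replicate 1 and highest in aged replicate 3, within a narrow aged range of 543 to 622 CPM. Within the young group Ppt1 was lowest in replicate 1 and highest in replicate 3, and the microglia sum lowest in replicate 2 and highest in replicate 3. The full order of Ppt1 was thus not that of the sum in either group. The part of microglia transcripts in these differences was not tested.

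Grn, the gene of progranulin, a secreted protein that is cut into granulins in the lysosome and is needed for lysosomal function in microglia, had 774, 1272 and 851 CPM in the aged libraries and 618, 660 and 503 CPM in the young ones. The groups did not overlap, with aged replicate 2 well above the other libraries. Its log2 fold change was 0.70 (SE 0.31, edgeR adjusted p = 0.861). Tpp1, the tripeptidyl peptidase lost in another neuronal ceroid lipofuscinosis, owed its higher aged mean to aged replicate 2. It was at 101, 323 and 102 CPM in aged libraries and 131, 153 and 132 CPM in young ones, so that the other aged libraries lay below every young one. Ifi30, a thiol reductase that opens disulfide bonds in antigens, was at 132 ± 36.7 CPM in aged and 96.8 ± 22.0 CPM in young libraries, with overlap.

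**Figure D3:**
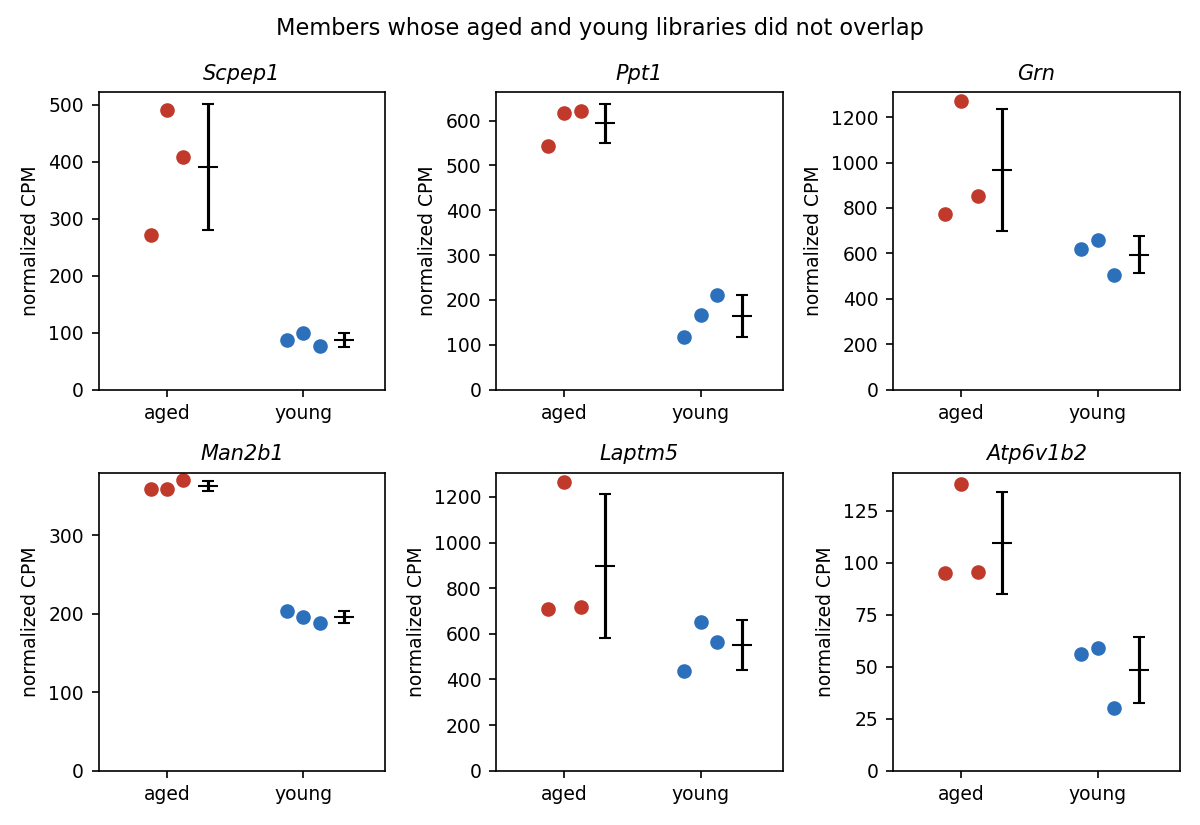
Normalized CPM of the 6 members without overlap between the groups, in each of 3 aged libraries (left) and 3 young libraries (right), with the mean and SD beside the points, on axes that start at 0. Man2b1 has the narrowest groups (359 to 370 CPM in aged and 188 to 204 CPM in young libraries), and in Scpep1, Grn, Laptm5 and Atp6v1b2 aged replicate 2, the middle aged point, stands highest.

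The glycosidases, which trim sugars from glycoproteins and glycolipids, showed no shared direction. Their log2 fold changes were above 0 for 4 of 8 and below 0 for 4, with a median of 0.03, and 0 were called. Man2b1, the acid alpha-mannosidase, had 359, 359 and 370 CPM in the aged libraries and 204, 196 and 188 CPM in the young ones. Both groups were tight and well apart on this scale, at 363 ± 6.54 CPM in aged and 196 ± 7.82 CPM in young libraries (n = 3 each). In deposited TPM the groups were also apart but the aged one was wider. Man2b1 was there at 44.3, 76.8 and 44.7 TPM in aged and 27.2, 23.5 and 23.3 TPM in young libraries. The log2 fold change was 0.89 (SE 0.28, edgeR adjusted p = 0.671, and 0.149 among genes averaging 50 CPM or more), and it stayed between 0.86 and 0.92 when any 1 library was left out. The SE in edgeR rests on the variance of genes of similar level as well as on the spread of Man2b1 itself.

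Hexa, the alpha subunit of beta-hexosaminidase, was the glycosidase with the highest mean TPM. It was at 301, 531 and 568 CPM in aged libraries and at 400, 335 and 245 CPM in young ones. The groups overlapped, since aged replicate 1 lay below young replicates 1 and 2 (log2 fold change 0.51, SE 0.35, edgeR adjusted p = 0.974). Glb1, the acid beta-galactosidase, had 14.5, 43.4 and 101 CPM in aged libraries and 24.0, 18.0 and 8.0 CPM in young ones. Again only aged replicate 1 overlapped the young libraries (log2 fold change 1.67, SE 0.86, edgeR adjusted p = 0.916).

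Gusb (beta-glucuronidase), Gaa (acid alpha-glucosidase), Neu1 (a sialidase) and Fuca1 (alpha-fucosidase) had log2 fold changes between -0.08 and 0.09. Their means were 142 ± 41.8, 29.0 ± 8.12, 23.7 ± 8.91 and 90.1 ± 79.5 CPM in aged libraries, against 134 ± 14.5, 29.9 ± 13.1, 25.1 ± 2.197 and 92.4 ± 12.7 CPM in young ones. The wide spread of Fuca1 came from aged libraries of 19.7, 176 and 74.2 CPM. Gla, alpha-galactosidase A, was detected unevenly, with 0, 335 and 1 counts in the aged libraries and 485, 31 and 4 in the young ones. A difference by age in Gla was not detectable at this spread between libraries (biological coefficient of variation 191%). In these libraries 3 counts correspond to between 0.0777 and 0.112 CPM.

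The lipid hydrolases and their activators had 5 of 5 log2 fold changes above 0, with a median of 0.43, 0 called and 0 without overlap. Asah1, the acid ceramidase, was the most abundant per length of these, at 418 ± 153 TPM in aged and 173 ± 23.5 TPM in young libraries. In normalized CPM it had 973, 1101 and 1707 in aged libraries and 844, 1008 and 724 in young ones. The lowest aged library lay just under the highest young one (log2 fold change 0.55, SE 0.32, edgeR adjusted p = 0.936), while in deposited TPM every aged library was above every young one. Gm2a, the activator that presents GM2 ganglioside to hexosaminidase, had 69.4, 214 and 91.1 CPM in aged libraries and 87.3, 51.8 and 68.2 CPM in young ones. Aged replicate 2 stood alone at the top (log2 fold change 0.85, SE 0.51, edgeR adjusted p = 0.942).

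Psap, the precursor of the saposins that help glycolipid enzymes reach their substrates, was at 260 ± 44.5 CPM in aged and 237 ± 54.4 CPM in young libraries. Pla2g15, a lysosomal phospholipase, was at 83.7 ± 32.3 and 77.9 ± 30.4 CPM in the same order. For both the difference was smaller than the SD of either group. Smpd1, acid sphingomyelinase, was low, with 27.4, 18.3 and 10.04 CPM in aged libraries and 8.0, 10.7 and 22.6 CPM in young ones, and the groups overlapped (log2 fold change 0.43, SE 1.05, edgeR adjusted p = 0.997).

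The membrane proteins divided into genes with higher aged means and genes without, 3 of 6 on each side of 0, with a median log2 fold change of 0.34 and 0 called. Laptm5, a lysosomal protein of blood cells that lowers surface receptors, had 711, 1263 and 719 CPM in the aged libraries and 435, 652 and 563 CPM in the young ones. The groups did not overlap on this scale (log2 fold change 0.71, SE 0.34, edgeR adjusted p = 0.892). In deposited TPM they did, at 274, 1212 and 303 TPM in aged and 110, 285 and 135 TPM in young libraries. Lamp1, a heavily glycosylated protein that coats the inner face of the membrane, had 225, 868 and 585 CPM in aged libraries and 246, 350 and 288 CPM in young ones. Aged replicate 1 was the lowest of all 6 libraries and the other aged libraries the 2 highest (log2 fold change 0.93, SE 0.46, edgeR adjusted p = 0.910).

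Lamp2, the relative of Lamp1 that also serves chaperone-mediated autophagy, was at nearly the same level in both groups, 753 ± 108 CPM in aged and 772 ± 161 CPM in young libraries (log2 fold change -0.03, SE 0.29). The difference between the Lamp1 and Lamp2 changes was not tested. Scarb2, the receptor that carries beta-glucocerebrosidase to lysosomes, was at 71.1 ± 20.5 and 74.2 ± 64.7 CPM, and Cln3, a membrane protein lost in juvenile ceroid lipofuscinosis, at 46.7 ± 28.6 and 50.2 ± 29.3 CPM, aged before young. Cln3 overlaps Apobr on the opposite strand, whose reads came to 6.09% of its own.

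Mcoln1, the calcium channel of the lysosomal membrane, and Tfeb were detected unevenly. Mcoln1 had 13, 1122 and 26 counts in the aged libraries and 20, 0 and 39 in the young ones, so that its fitted change of 3.89 (SE 2.46, edgeR adjusted p = 0.953) came from aged replicate 2, without which it was 0.01. Tfeb had 0, 185 and 127 counts in the aged libraries and 24, 13 and 251 in the young ones. The groups overlapped fully (log2 fold change -0.14, SE 2.19). An age difference in Tfeb was not detectable at this spread between libraries (biological coefficient of variation 167%).

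The V-ATPase genes as a set stayed at a similar summed level. The 13 genes summed to 4325, 3735 and 4427 CPM in the aged libraries and 4178, 4752 and 4267 CPM in the young ones. Their log2 fold changes were above 0 for 7 and below 0 for 6, with a median of 0.02, and 0 were called. The V1 sector genes summed to 2005 ± 442 CPM in aged and 2262 ± 80.6 CPM in young libraries, and the V0 sector genes to 1578 ± 261 and 1623 ± 79.7 CPM (aged before young). Both differences were smaller than the SD of the aged group.

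**Figure D4:**
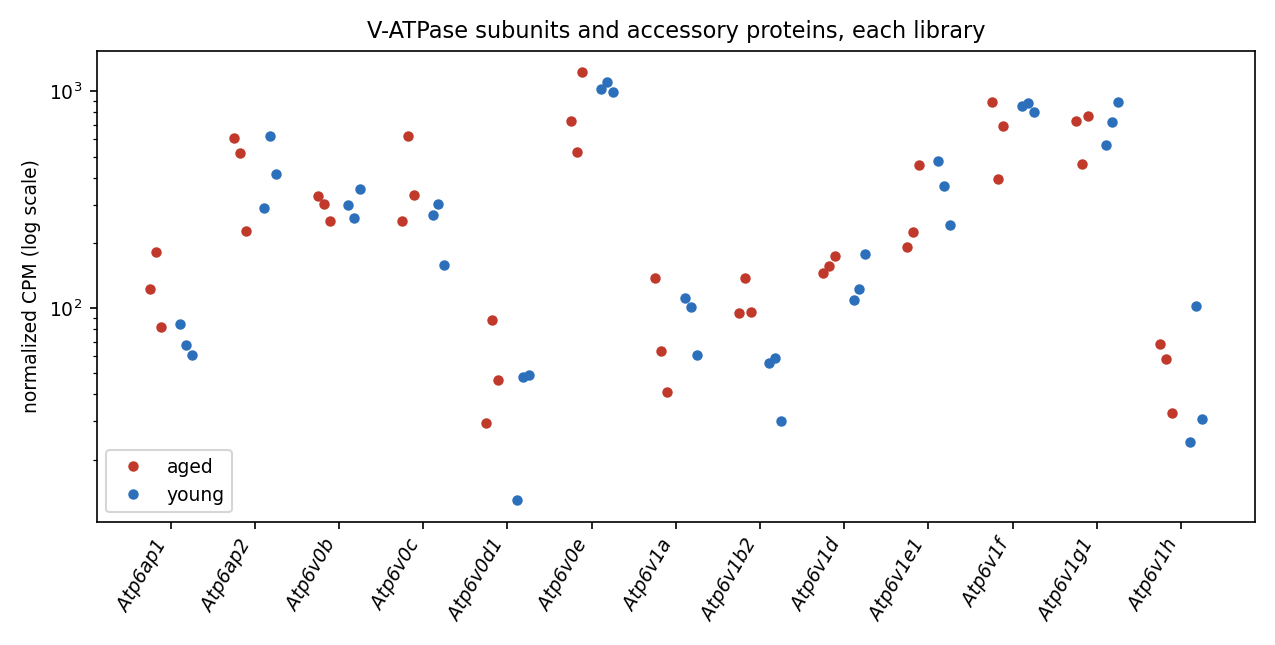
Normalized CPM on a log scale of the 13 V-ATPase genes in each of 3 aged libraries (left points of each gene) and 3 young libraries (right points). The groups overlap for 12 of the 13, and for Atp6v1b2 every aged library lies above every young one.

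Within the V1 sector, Atp6v1b2 differed most. It encodes the B subunit, which shares the catalytic ring with the A subunit and is its widely expressed form. It had 95.1, 138 and 95.4 CPM in aged libraries and 56.1, 59.1 and 30.3 CPM in young ones. The groups did not overlap (log2 fold change 1.17, SE 0.46, edgeR adjusted p = 0.797), although in deposited TPM they did. Atp6v1a, the catalytic A subunit of the same ring, was at 80.5 ± 50.5 CPM in aged and 91.2 ± 26.9 CPM in young libraries (log2 fold change -0.18, SE 0.54).

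Atp6v1f, a subunit of the central stalk, had the highest mean TPM of all members. Its levels were 893, 392.2 and 690 CPM in aged libraries and 859, 879 and 801 CPM in young ones. Aged replicates 2 and 3 lay below the young libraries and aged replicate 1 above them (log2 fold change -0.36, SE 0.34, edgeR adjusted p = 0.993). The peripheral stalk genes Atp6v1g1 and Atp6v1e1 were at 655 ± 167 and 291 ± 145 CPM in aged libraries and 726 ± 167 and 362 ± 118 CPM in young ones. Atp6v1d, also of the central stalk, was at 158 ± 14.4 and 136 ± 36.2 CPM, and the regulatory subunit gene Atp6v1h at 53.0 ± 18.1 and 52.3 ± 43.3 CPM, aged before young. Atp6v1h overlaps Rgs20 on the opposite strand, whose reads came to 13.6% of its own.

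In the V0 sector, Atp6v0c, the proteolipid that forms most of the rotating ring, had 252, 624 and 332 CPM in aged libraries and 269, 301 and 158 CPM in young ones. Aged replicate 1 lay among the young libraries (log2 fold change 0.73, SE 0.42, edgeR adjusted p = 0.936). GENCODE M21 lists the pseudogenes Atp6v0c-ps1 and Atp6v0c-ps2, neither of which was in the tables used here, so reads from copies cannot be told apart from those of Atp6v0c. Atp6v0b, the other proteolipid member, was at 294 ± 38.1 CPM in aged and 304 ± 47.1 CPM in young libraries. Atp6v0e, a small subunit, was at 826 ± 360 and 1040 ± 55.6 CPM, and Atp6v0d1, which couples the ring to the stalk, at 54.7 ± 30.2 and 36.8 ± 20.7 CPM, aged before young. None of these passed.

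The accessory proteins help assemble and target the pump. Atp6ap1 had 122, 181 and 81.8 CPM in aged libraries and 84.5, 67.6 and 60.8 CPM in young ones. Aged replicate 3 lay below young replicate 1 and the other aged libraries were above all young ones (log2 fold change 0.85, SE 0.43, edgeR adjusted p = 0.913). In deposited TPM the groups did not overlap, at 30.4, 108 and 29.4 TPM in aged and 17.1, 14.6 and 12.9 TPM in young libraries. Atp6ap2, also known as the prorenin receptor, was at 450 ± 199 CPM in aged and 443 ± 167 CPM in young libraries.

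Summed over all 38 members, the level was 10136, 12862 and 12038 CPM in the aged libraries and 9150, 10112 and 8660 CPM in the young ones, with aged replicate 1 barely above young replicate 2. Without Scpep1 and Ppt1 the groups overlapped. The other 36 members summed to 9321, 11755 and 11007 CPM in aged and 8946, 9847 and 8373 CPM in young libraries. Set side by side by library, the roles had different profiles. The protein-processing group summed to 1796, 2877 and 2102 CPM in aged libraries and 1025, 1193 and 1024 CPM in young ones. Without Scpep1 and Ppt1 the other 3 genes of that group summed to 980, 1769 and 1072 CPM in aged libraries. In young libraries these 3 genes summed to 821, 928 and 738 CPM. Grn made up most of this, at 774, 1272 and 851 CPM in aged and 618, 660 and 503 CPM in young libraries. The groups overlapped for both Tpp1 and Ifi30. Glycosidases summed to 897, 1349 and 1264 CPM in aged libraries and 894, 833 and 751 CPM in young ones. Aged replicate 1 was barely above young replicate 1, and the other aged libraries were clearly above all young ones. Lipid hydrolases and activators summed to 1436, 1699 and 2107 CPM in aged and 1287, 1443 and 1040 CPM in young libraries, and membrane proteins to 1683, 3199 and 2134 CPM and 1766, 1890 and 1568 CPM in the same order. The groups did not overlap in the protein-processing sum and, narrowly, in the glycosidase sum, and they overlapped in the lipid and membrane sums. The separation in the glycosidase sum rested on Man2b1, the only glycosidase without overlap.

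**Figure D5:**
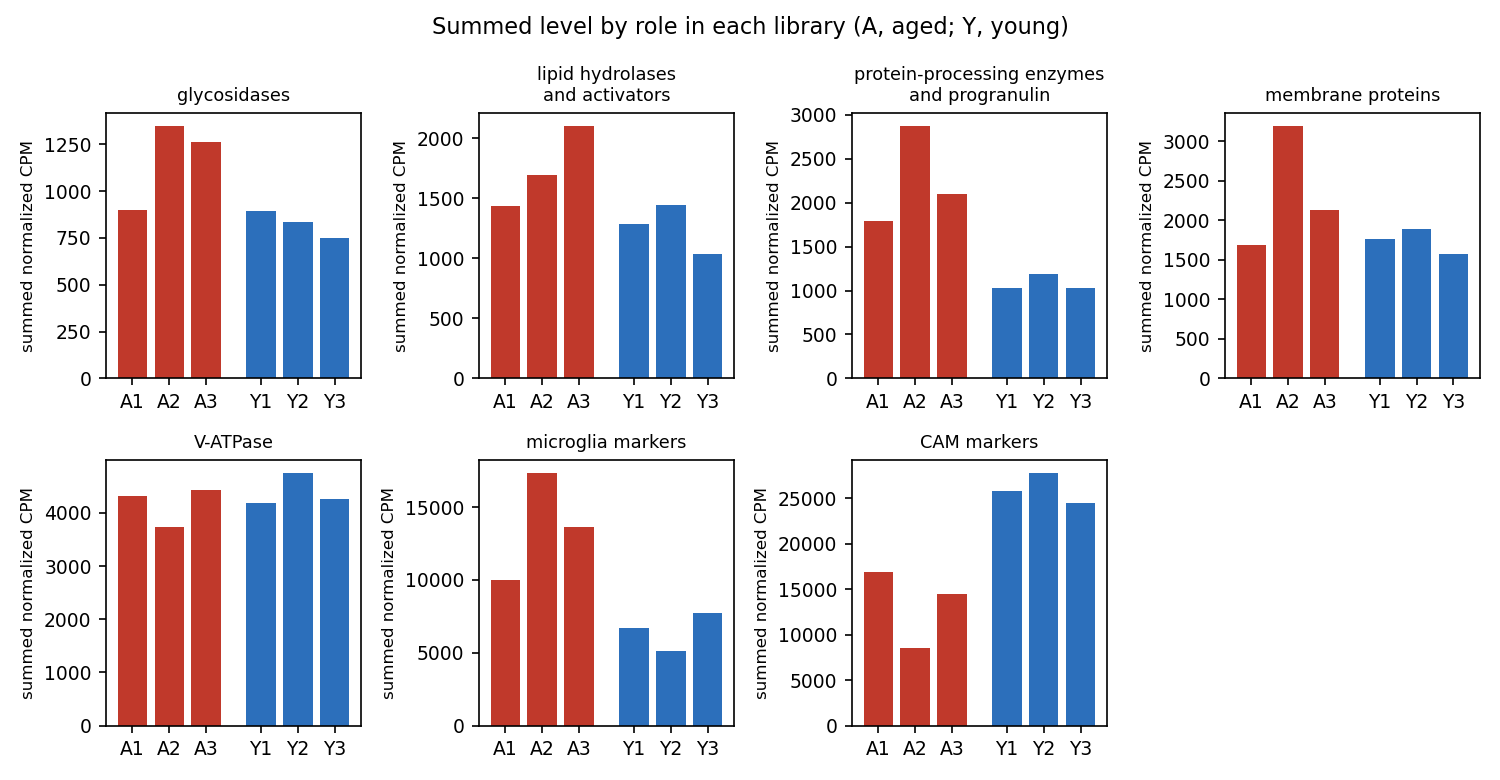
Summed normalized CPM of each role but Tfeb in each library (A1 to A3 aged, Y1 to Y3 young), with the sums of 12 microglia and 12 CAM markers, on axes that start at 0. The protein-processing sum is higher in each aged library (1796 to 2877 CPM) than in any young one (1024 to 1193 CPM), the V-ATPase sum is not (3735 to 4427 against 4178 to 4752 CPM), and aged replicate 2 has the highest microglia sum and the lowest CAM sum.

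Aged replicate 2 was the library with the highest level for 17 of the 38 members (44.7%), while it held the highest value for 13.7% of the 2189 genes that averaged 50 CPM or more. The sets are not alike, since 9 of the 38 members averaged less than 50 CPM. For 16 members it was at over 1.5 times the mean of the other aged libraries, a count without a share over all genes. It was also the library with the highest sum of microglia markers and the lowest sum of CAM markers. Aged replicate 2 also had the most genes with at least 5 counts, 12543 against 9875 to 11566 elsewhere. Its TMM scaling factor was the largest, 1.18 against 0.942 to 1.01. The part of these features in the member values was not tested. Without aged replicate 2 the median log2 fold change of the 38 members was 0.05, against 0.18 with all libraries, and the same 6 members had no overlap. Gla, Neu1, Fuca1 and Tpp1 were then lower in both other aged libraries than in any young one. For Gla this was at the floor, with 0 and 1 counts against 4 in the lowest young library. Of all genes tested, 11.2% were then higher and 12.9% lower without overlap. Without aged replicate 1, 13 members were higher without overlap and 1, Atp6v1f, was lower, where 14.1% and 13.3% of all genes tested were.

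Members with and without the motif TCACGTG in a promoter window can be set side by side. The 11 members with it had a median log2 fold change of -0.04, with 0 of 11 free of overlap, although Mcoln1 (3.89), Glb1 (1.67) and Lamp1 (0.93), all with overlap, had some of the larger fitted changes. The 23 members with a window and no match had a median of 0.22, with 5 of 23 free of overlap, all higher, where 7.54% of all genes tested and 11.2% of those averaging 50 CPM or more were. The difference between these members was not tested. Only 5 of the 11 averaged 50 CPM or more, against 20 of the 23, so the groups also differed in level.

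Other lysosomal genes were followed through 6 further lists of 113 genes, of which 99 passed the low-count filter. Of these, 0 were called in either direction, 8 were higher and 4 lower without overlap, and the median log2 fold change was 0.18. Over all genes tested 7.54% were higher and 7.19% lower without overlap, so the number higher was near that of the background. The list of other glycosidases and sulfatases had a median of -0.25 over 19 genes. Ids, iduronate 2-sulfatase, was at 36.8, 45.5 and 30.5 CPM in aged libraries and 103, 113 and 26.97 CPM in young ones, with overlap (log2 fold change -1.11, SE 0.62).

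Other lipid hydrolases and carriers had a median log2 fold change of 0.34 over 13 genes. Pld4, an endolysosomal nuclease, was nearest to passing in that list at 0.97 (SE 0.44), and Naaa, an acid amidase, followed at 1.28 (SE 0.87). Other membrane proteins had a median of 0.42 over 27 genes, led by the macrophage glycoprotein gene Cd68. It had 855, 1608 and 1272 CPM in aged libraries and 726, 822 and 633 CPM in young ones, without overlap (log2 fold change 0.78, SE 0.32, edgeR adjusted p = 0.817). Laptm4a, a relative of Laptm5, was at 0.76 (SE 0.39) with overlap.

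Other V-ATPase subunits and assembly factors had a median log2 fold change of 0.36 over 12 genes. Atp6v1c1, the C subunit that joins the sectors, had 126, 174 and 194 CPM in aged libraries and 114, 82.3 and 43.2 CPM in young ones. The groups did not overlap (log2 fold change 1.04, SE 0.45, edgeR adjusted p = 0.855). Rogdi, linked to V-ATPase assembly, was at 1.76 (SE 1.16), with overlap. Tcirg1, an a subunit of the V0 sector, was low and went the other way without overlap, with 2.36, 2.88 and 0.106 CPM in aged and 5.12, 9.53 and 16.2 CPM in young libraries (log2 fold change -2.53, SE 1.79, edgeR adjusted p = 0.974). In the list of delivery to lysosomes (median 0.72 over 10 genes), Sort1, the sorting receptor sortilin, had 40.2, 32.9 and 32.5 CPM in aged and 7.08, 17.0 and 3.08 CPM in young libraries (log2 fold change 1.96, SE 0.95, edgeR adjusted p = 0.901). M6pr, a mannose 6-phosphate receptor, was at 0.79 (SE 0.43).

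In the list of TFEB relatives and nutrient sensing (median -0.32 over 18 genes), 1 gene was higher and 3 (Lamtor2, Tfec and Mtor) were lower without overlap, where 7.54% and 7.19% of all genes tested were. Tfec and Mtor were low, with means of 15.6 and 6.46 CPM over the 6 libraries, and in deposited TPM the Mtor groups overlapped. Rragc, a GTPase that recruits mTORC1 to lysosomes, had 64.8, 50.9 and 60.7 CPM in aged libraries and 20.9, 12.4 and 37.7 CPM in young ones (log2 fold change 1.31, SE 0.64, edgeR adjusted p = 0.910). Lamtor2, a subunit of the Ragulator scaffold, had 160, 110 and 154 CPM in aged libraries and 174, 194 and 249 CPM in young ones (log2 fold change -0.54, SE 0.35, edgeR adjusted p = 0.956). Of its partner subunits, Lamtor1 and Lamtor3 had log2 fold changes of 0.62 and 0.51 and Lamtor4 and Lamtor5 of -0.13 and -0.49, all with overlap.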

How the data were processed

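Sorted brain CAMs gave total RNA that was reverse transcribed and PCR-amplified with the SMARTer Ultra Low Input kit, made into Nextera XT libraries and sequenced as single reads, per the labels' protocols. Per the submitters' processing notes, the tools were bcl2fastq 2.20, fastp, FastQC, Picard and DRAGEN and the build was mm10; which tool did what, and the annotation, is not given in the sources used here. The deposited tables hold estimated counts per gene, not scaled to depth, and TPM that the authors scaled for length and depth.

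Estimated counts were rounded to whole numbers, and 35513 of 35598 identifiers matched GENCODE M21 without version. The kit does not mark strand. Genes were filtered with filterByExpr, scaled by TMM and tested with edgeR 4.0.16 in R 4.3.3 (quasi-likelihood F test, robust, two-sided, no covariate, 3 aged against 3 young libraries), with Benjamini-Hochberg adjustment over 10661 genes and a threshold of 0.05. Each SE was obtained by dividing the size of the log2 fold change by the root of F. Levels are TMM-normalized CPM; floors of 3 counts cover counting error only, since PCR copies are not independent molecules. The scripts were tested on simulated data. Alternatives used limma 3.58.1 and DESeq2 1.42.0.

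The members, lists and alternatives were chosen with earlier results of these data known. By a fixed rule, values in every library were given for the 3 members of each role with the smallest unadjusted p and the member with the highest mean TPM, and of each further list the 2 genes with the smallest p were named, apart from 1 gene that is not reported here; other genes were named after their values were seen. Promoters came from RefSeq (GRCm38.p6).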

Additional observations from a re-analysis of the deposited data

How the results depend on the processing

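The number of genes called (1 higher, 0 lower) was 270 and 187 by the DESeq2 Wald test, 51 and 11 without a low-count filter, 19 and 6 among genes averaging 50 CPM or more and 0 and 0 in limma-voom. Members called higher (0) became 2, Scpep1 and Ppt1, in the DESeq2 Wald test (2.19% of all genes called higher), without a filter (0.225%) and among genes averaging 50 CPM or more. Leaving out 1 library gave 0 to 2 genes higher, 0 to 1 lower and 0 members either way. Among genes averaging 50 CPM or more it gave 1 to 3 members higher and 0 lower, where between 5 of 2206 and 112 of 2207 genes were called higher, the most in the fit with 3 members; these fits were chosen after seeing the data. Members higher without overlap (6) numbered 6 to 13, and lower (0) 0 to 4, when a library was left out, which by construction makes overlap rarer: 11.2% to 14.1% of all genes tested were then higher and 11.8% to 13.3% lower.

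The labels do not say whether the replicate number pairs the libraries. Correlations of same-numbered deviations across 2189 genes were -0.01, 0.03 and 0.08, and those of unlike-numbered libraries lay between -0.12 and 0.11. With 3 libraries per group these values cannot decide whether the numbers mark a shared day. Choroid plexus markers were highest in replicate 3 of both ages (8176 CPM in aged and 11815 CPM in young). The replicate block called 1 gene higher, 0 lower and 0 members. On the TPM scale the median of all genes was 0.22, against -0.02, and the medians of all members (0.50) and V-ATPase genes (0.33) moved with it. The glycosidase median was 0.37 among genes averaging 50 CPM or more, where 4 of the 8 genes remain, and 0.038 to 0.38 with a library left out. Leaving out a library gave medians of 0.05 to 0.39 for all members, -0.12 to 0.15 for V-ATPase genes, -0.07 to 0.69 for membrane proteins, 0.22 to 0.45 for lipid hydrolases and 0.46 to 0.85 for the protein-processing group.

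Of 38 members, 18 changed sign under some setting, none of them called under any; the cause was not tested. In TPM the log2 fold changes that changed sign were Gla 0.18, Gaa 0.15, Neu1 0.31, Fuca1 0.020, Lamp2 0.18, Scarb2 0.46, Tfeb 0.013, Atp6v0b 0.18, Atp6v1a 0.068, Atp6v1e1 0.10 and Atp6v1g1 0.13. Among genes averaging 50 CPM or more they were Fuca1 0.12, Lamp2 0.024, Scarb2 0.035 and Atp6v0b 0.0075, in limma-voom Gaa 0.0036 and Scarb2 0.26, and with the replicate block Gaa 0.022, Scarb2 0.31 and Atp6ap2 -0.035. With a library left out the ranges were -7.999 to 2.15 for Gla, -0.33 to 0.31 for Gaa, -0.10 to 0.31 for Gusb, -0.41 to 0.14 for Neu1, -0.98 to 0.44 for Fuca1, -0.24 to 0.44 for Pla2g15, -0.038 to 0.26 for Psap, -0.44 to 0.62 for Tpp1, -0.18 to 0.12 for Lamp2, -0.48 to 0.92 for Scarb2, -0.52 to 0.33 for Cln3, -0.64 to 2.30 for Tfeb, -0.24 to 0.35 for Atp6ap2, -0.15 to 0.080 for Atp6v0b, -0.80 to 0.14 for Atp6v1a, -0.30 to 0.050 for Atp6v1g1 and -0.32 to 0.95 for Atp6v1h. The other 20 members kept their sign in every setting run.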
